A study of Mus musculus with 6 samples.

Results

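The genes described here encode 7 subunits of the GABA-A receptor, namely Gabra2, Gabra3, Gabra4, Gabra5, Gabrb1, Gabrb2 and Gabrg1. They are 7 of the 54532 gene identifiers in a table of brain RNA-seq values, and were found by matching each identifier to its symbol in GENCODE M21, an annotation of the mouse genome build GRCm38. All 7 had a value in every library and passed the minimum for testing. The libraries, 3 of Angptl2-/- and 3 of Angptl2+/+ mice, were made from total RNA of the brain at postnatal day 15, to ask how loss of Angptl2 changes gene expression. Angptl2 encodes a secreted angiopoietin-like protein. The knockout mice were on a C57BL/6 background and carried a germline deletion of exon 2, made by crossing male Angptl2 fl/fl mice that expressed Stra8-cre in their germ cells with wild-type females, so the deletion was not limited to a cell type of the brain. The Angptl2+/+ mice were the wild-type controls, and the labels give no treatment for either genotype. Neither the labels nor the methods state the dissection, the sex of the mice or whether each library came from a separate animal, so the p-values measure the spread between libraries.

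GABA-A receptors are chloride channels opened by GABA, the main inhibitory transmitter of the adult brain. Each channel is assembled from alpha and beta subunits, usually with a gamma or delta subunit, and the alpha subunit largely sets where the receptor sits and which drugs act on it. During postnatal development of the rodent forebrain, receptors with alpha2, alpha3 or alpha5 subunits are prominent early, and the mix of alpha subunits shifts as the brain matures. GABA also turns from depolarizing to hyperpolarizing in this period, as the chloride exporter Kcc2 (gene Slc12a5) accumulates.

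Values are FPKM, the fragments of a gene scaled to its length and to the depth of the library. They can be set side by side between genes only roughly. They depend on the exon length used for each gene and are not corrected for its GC content. Fragments recovered from the FPKM and exon lengths summed to 17127276 to 18928921 in a library. The totals that the FPKM imply for depth, fitted from the same values, differed from these sums and ran from 16382566 to 19175242. Each of the 7 genes was covered by 485 to 4438 fragments in a library, which alone gives a counting error of 1.50 to 4.54%. The spread between replicates of one genotype was 3.46 to 34.4% of the mean and exceeded the counting error for all 7 genes in both genotypes. Log2 fold changes are Angptl2-/- minus Angptl2+/+ on log2(FPKM + 0.1), with 95% intervals. They were tested with limma, two-sided, with Benjamini-Hochberg adjustment over the 14862 genes whose FPKM averaged at least 0.5. The targeted gene itself had 0.166, 0.320 and 0.126 FPKM in Angptl2-/- brains, against 0.660, 0.958 and 0.290 FPKM in Angptl2+/+ brains. Its mean was below the minimum, and Angptl2-/- replicate 2 lay above Angptl2+/+ replicate 3, so the values of the targeted gene overlapped between the genotypes. They cover the whole gene and not only the deleted exon 2.

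Of the 7 genes, 4 form one cluster, and the other 3 lie apart from them and from each other. Gabrg1 (chromosome 5, 70751047 to 70842617, minus strand), Gabra2 (70957597 to 71095849, minus strand), Gabra4 (71569749 to 71658308, minus strand) and Gabrb1 (71658113 to 72149037, plus strand) lie next to each other within 1398 kb of chromosome 5. Gabra4 and Gabrb1 start head to head and share 46 exon bases on opposite strands, which is 0.756% of the exons of Gabra4 and 0.332% of those of Gabrb1. Gabra5 lies on chromosome 7 (57407672 to 57510059, minus strand), where 148 of its 2974 exon bases, or 4.98%, overlap the antisense gene Gm9962. Whether counting used strand is not stated by the sources used, so reads in such shared bases cannot be assigned to one gene, and Gm9962 had a mean of 1.0 FPKM. Gabra3 is on chromosome X (72432681 to 72656848, minus strand) and Gabrb2 on chromosome 11 (42419757 to 42629028, plus strand). These 3 genes have subunit genes outside the 7 near them. Gabrg3 (56716465 to 57387188) lies by Gabra5, and Gabra6 (42306437 to 42321072) by Gabrb2. Gabre (72255999 to 72274803) and Gabrq (72825178 to 72842602) lie on either side of Gabra3. All coordinates are those of GRCm38.

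The 4 genes whose libraries did not overlap between genotypes, described below, start in sequence of very different composition. The 250 bases before a RefSeq start site (GRCm38.p6) are shown for each, 5′ to 3′ on the strand of the gene, with CpG dinucleotides in capitals, to set the composition around their starts beside that of their exons, which moved with the difference between genotypes over all genes. For Gabrb1, which has 2 such windows, the one outside Gabra4 is given. It lies inside Gabrb1, downstream of the annotated start of the gene at 71658113. The other (chr5:71657671-71657920) lies just before that start and within Gabra4, and is described but not printed.
Gabra2, chr5:71095850-71096099, minus strand: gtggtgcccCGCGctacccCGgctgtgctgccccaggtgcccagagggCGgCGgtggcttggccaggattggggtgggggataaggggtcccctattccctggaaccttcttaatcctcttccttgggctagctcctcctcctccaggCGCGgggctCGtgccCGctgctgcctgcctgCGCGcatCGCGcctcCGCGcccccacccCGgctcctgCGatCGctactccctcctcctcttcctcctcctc
Gabrg1, chr5:70842618-70842867, minus strand: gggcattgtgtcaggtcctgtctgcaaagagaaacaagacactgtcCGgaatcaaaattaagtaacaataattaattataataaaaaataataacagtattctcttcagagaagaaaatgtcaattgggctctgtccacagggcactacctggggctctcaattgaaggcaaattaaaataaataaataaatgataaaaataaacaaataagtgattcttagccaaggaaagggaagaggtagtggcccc
Gabrb1, chr5:71699682-71699931, plus strand: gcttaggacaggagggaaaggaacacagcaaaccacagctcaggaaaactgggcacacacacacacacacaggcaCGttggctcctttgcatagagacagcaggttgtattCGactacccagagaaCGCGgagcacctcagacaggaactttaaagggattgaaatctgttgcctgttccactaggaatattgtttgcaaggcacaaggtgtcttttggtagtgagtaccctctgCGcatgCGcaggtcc
Gabra5, chr7:57510060-57510309, minus strand: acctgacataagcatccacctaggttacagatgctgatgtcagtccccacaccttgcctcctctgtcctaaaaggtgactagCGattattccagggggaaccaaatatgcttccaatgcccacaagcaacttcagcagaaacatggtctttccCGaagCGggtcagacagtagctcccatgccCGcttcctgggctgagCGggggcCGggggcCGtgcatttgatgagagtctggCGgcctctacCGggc
The window of Gabra2 holds 18 CpG dinucleotides at 70.0% GC, whereas that of its neighbour Gabrg1 holds 1 at 35.6% GC. Those of Gabrb1 and Gabra5 hold 6 and 9, beside a median of 6 over 32851 RefSeq windows of the same length. The other window of Gabrb1 holds 18 CpG dinucleotides at 64.4% GC. At least 18 CpG dinucleotides occurred in 21.7% of all windows, and 92.1% had at least 1. Searched on both strands, the letters CCAAT occur in the windows of Gabra2, Gabrg1 and Gabra5 and in 33.8% of all windows. The GC box GGGCGG occurs in that of Gabra2 and in 32.7% of all windows. Neither TATAAA, found in 12.4% of all windows, nor TGACGTCA, the cAMP response element found in 1.55%, occurs in any of the 4 printed windows. The other window of Gabrb1 holds none of these motifs.

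Across the 6 libraries the 7 genes differed in level, with Gabra3 at the top and Gabrg1 at the bottom. Gabra3 averaged 41.4 FPKM over the 6 libraries, Gabrb2 35.7 FPKM, Gabra5 30.2 FPKM, Gabra4 24.5 FPKM, Gabra2 20.4 FPKM, Gabrb1 13.8 FPKM and Gabrg1 5.32 FPKM. Gabrb2 exceeded Gabra5, Gabra2 exceeded Gabrb1 and Gabrb1 exceeded Gabrg1 in 6 of 6 libraries. Gabra3 exceeded Gabrb2, and Gabra5 exceeded Gabra4, in 5 of 6 libraries. Gabra4 exceeded Gabra2 in 3 of 6 libraries, so these neighbours in the order could not be told apart.

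None of the 7 genes passed the adjusted threshold (0 of 7, beside 0.0% of the 14862 genes tested), while the log2 fold change was above 0 for all 7, beside 49.4% of all genes. The median over the 7 genes was 0.42 on the log2 scale, beside −0.00 over all genes tested. At an unadjusted p under 0.05, limma placed 4 of 7 higher in Angptl2-/- brains, beside 7.09% of all genes, and 0 of 7 lower, beside 9.12%. The same 4, Gabra2, Gabra5, Gabrb1 and Gabrg1, had no overlap between the genotypes, beside 10.7% of all genes in that direction, and 11.8% of all genes were lower without overlap. With voom on the fragments recovered from the FPKM, 0 of 7 passed the adjusted threshold and 5 of 7 were higher at an unadjusted p under 0.05, beside 7.75% of all genes. Without Angptl2-/- replicate 3 the limma count at an unadjusted p under 0.05 was 2 of 7. Of all genes, 466 were then higher at that level, against 1054 with all 6 libraries. After a correction for GC content, given below, the count was 1 of 7, beside 2.78% of all genes. The log2 fold change of Gabrb2 was then −0.08, and the other 6 stayed above 0.

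**Figure D1:**
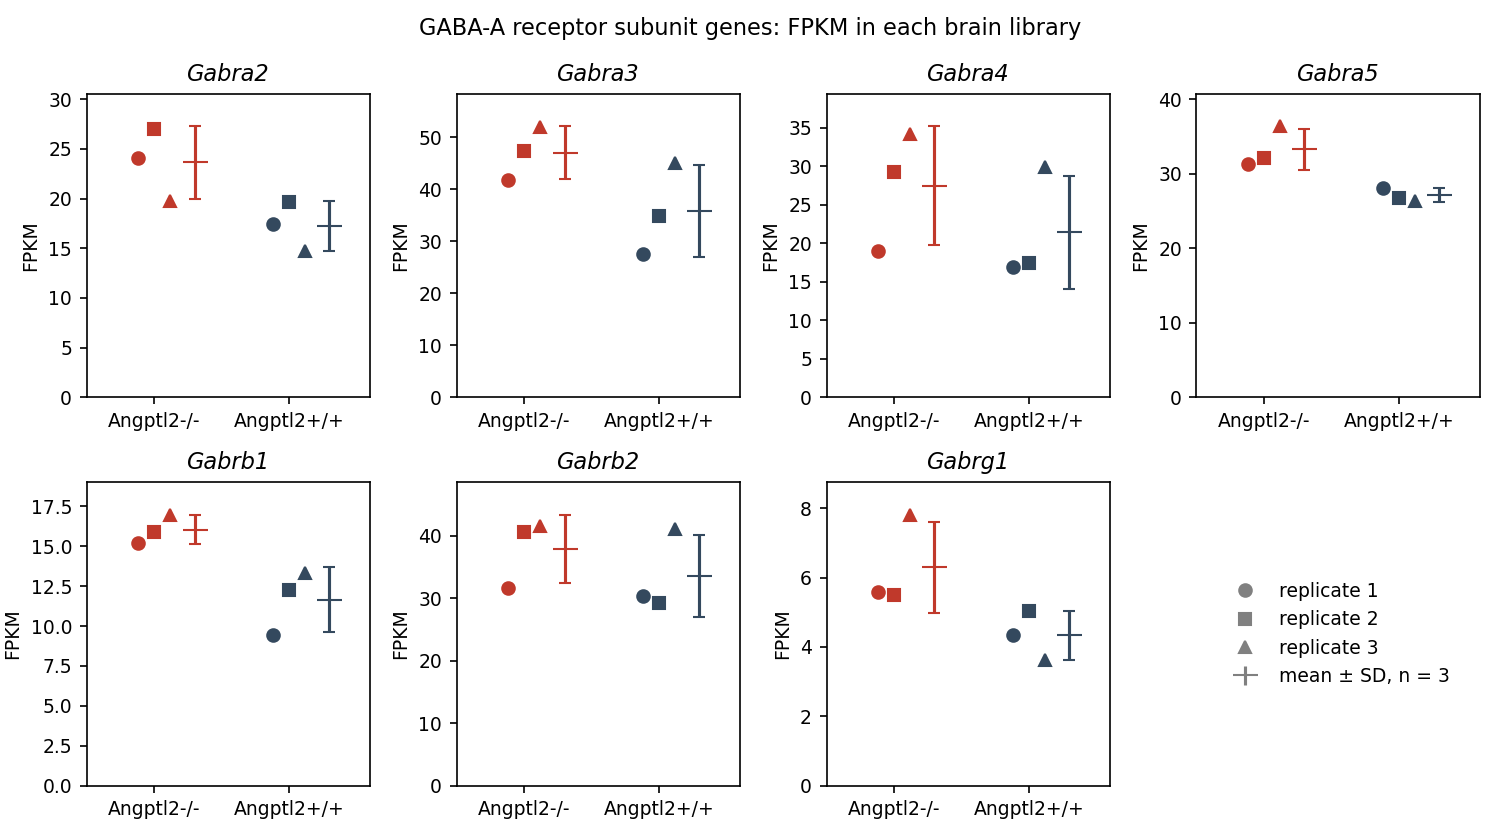
FPKM (y axis, from 0) of the 7 GABA-A receptor subunit genes in the 3 Angptl2-/- libraries (left, red) and the 3 Angptl2+/+ libraries (right, dark), with a symbol for each replicate number and the mean ± SD beside the points. The points of Gabra2, Gabra5, Gabrb1 and Gabrg1 do not overlap between genotypes, with the narrowest gap in Gabra2, and those of Gabra3, Gabra4 and Gabrb2 do.

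Gabra2 encodes the alpha2 subunit, found at synapses and at the axon initial segment of forebrain neurons and tied to the anxiolytic action of benzodiazepines. Gabra2 (ENSMUSG00000000560) had 24.1, 27.0 and 19.8 FPKM in Angptl2-/- brains, against 17.4, 19.7 and 14.7 FPKM in Angptl2+/+ brains. Replicate 3 was the lowest of both genotypes, and the lowest Angptl2-/- library lay just above the highest Angptl2+/+ library. The means were 23.6 ± 3.67 FPKM in Angptl2-/- and 17.3 ± 2.49 FPKM in Angptl2+/+ brains (SD, n = 3 each). Its log2 fold change was 0.45 (0.08 to 0.82), with an adjusted p of 0.277 by limma, and between 0.34 and 0.57 with one library left out.

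Gabra3 encodes the alpha3 subunit, which is typical of the embryonic and early postnatal forebrain and of monoaminergic neurons. Gabra3 (ENSMUSG00000031343) had 41.8, 47.3 and 52.0 FPKM in Angptl2-/- brains, against 27.6, 34.8 and 45.1 FPKM in Angptl2+/+ brains. The overlap came from Angptl2+/+ replicate 3, which lay above Angptl2-/- replicate 1. Its log2 fold change was 0.42 (−0.02 to 0.85), with an adjusted p of 0.324 by limma. Leaving out one library gave 0.24 to 0.60, the lowest without Angptl2+/+ replicate 1 and the highest without Angptl2+/+ replicate 3. Gabra3 is the X-linked member, and Ddx3y, a Y-linked gene looked up after the values were seen, was above 0 in Angptl2-/- replicates 1 and 3, at 9.26 and 14.7 FPKM, and in Angptl2+/+ replicate 3, at 9.96 FPKM. By this gene the genotypes differ in their mix of sexes, and the part of sex in the 7 genes was not tested.

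Gabra4 encodes the alpha4 subunit, a partner of the delta subunit in extrasynaptic receptors of the thalamus, striatum and dentate gyrus that are insensitive to diazepam. Gabra4 (ENSMUSG00000029211) had 19.0, 29.3 and 34.2 FPKM in Angptl2-/- brains, against 16.9, 17.4 and 29.9 FPKM in Angptl2+/+ brains. Its spread was the widest of the 7, with both a low and a high library in each genotype. The log2 fold change of 0.37 (−0.30 to 1.04) had an adjusted p of 0.521 by limma, and its interval spans both directions. It was 0.63 without Angptl2+/+ replicate 3 and 0.61 without Angptl2-/- replicate 1, and 0.19 to 0.30 without any one of the other 4 libraries, the lowest without Angptl2-/- replicate 3.

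Gabra5 encodes the alpha5 subunit, which is abundant in hippocampal pyramidal cells and carries tonic inhibition there. Gabra5 (ENSMUSG00000055078) had 31.3, 32.1 and 36.4 FPKM in Angptl2-/- brains, against 28.1, 26.7 and 26.3 FPKM in Angptl2+/+ brains. The Angptl2+/+ libraries lay close together, and every Angptl2-/- library was above them. The means were 33.2 ± 2.75 FPKM in Angptl2-/- and 27.1 ± 0.938 FPKM in Angptl2+/+ brains (SD, n = 3 each). Its log2 fold change was 0.29 (0.06 to 0.53), with an adjusted p of 0.274 by limma, and between 0.23 and 0.34 with one library left out.

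Gabrb1 encodes the beta1 subunit, and its FPKM was lower than that of Gabrb2 in each of the 6 libraries. Gabrb1 (ENSMUSG00000029212) had 15.2, 15.9 and 17.0 FPKM in Angptl2-/- brains, against 9.41, 12.2 and 13.3 FPKM in Angptl2+/+ brains. The Angptl2-/- libraries lay close together, and the Angptl2+/+ libraries spread below them, with replicate 1 the lowest. The means were 16.0 ± 0.898 FPKM in Angptl2-/- and 11.7 ± 2.02 FPKM in Angptl2+/+ brains (SD, n = 3 each). The log2 fold change of 0.47 (0.13 to 0.81) had the smallest unadjusted p of the 7 genes, 0.0136, and an adjusted p of 0.273 by limma. With one library left out it was between 0.32 and 0.57.

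Gabrb2 encodes the beta2 subunit, part of the most common synaptic receptors of the adult brain. Gabrb2 (ENSMUSG00000007653) had 31.6, 40.6 and 41.5 FPKM in Angptl2-/- brains, against 30.3, 29.2 and 41.1 FPKM in Angptl2+/+ brains. Replicate 3 of the Angptl2+/+ brains matched the upper Angptl2-/- libraries, and Angptl2-/- replicate 1 lay with the lower Angptl2+/+ libraries. The log2 fold change of 0.18 (−0.22 to 0.58) had an adjusted p of 0.597 by limma and was the smallest of the 7. It was 0.34 without Angptl2+/+ replicate 3 and 0.31 without Angptl2-/- replicate 1, and 0.091 to 0.13 without any one of the other 4 libraries, the lowest without Angptl2+/+ replicate 2.

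Gabrg1 encodes the gamma1 subunit, a gamma subunit of restricted expression that is found in the amygdala, striatum and hypothalamus and in Bergmann glia. Gabrg1 (ENSMUSG00000001260) had 5.58, 5.51 and 7.82 FPKM in Angptl2-/- brains, against 4.36, 5.04 and 3.63 FPKM in Angptl2+/+ brains. No libraries overlapped, and Angptl2-/- replicate 3 stood above the rest. The means were 6.30 ± 1.31 FPKM in Angptl2-/- and 4.34 ± 0.706 FPKM in Angptl2+/+ brains (SD, n = 3 each). The log2 fold change of 0.52 (0.09 to 0.95) was the largest of the 7, had an adjusted p of 0.277 by limma, and was between 0.36 and 0.63 with one library left out. For each of the 4 genes without overlap a two-sided exact permutation test of the log2 values gave p = 0.1, the smallest that 3 libraries against 3 allow. The lack of overlap fixes this value, so the test adds nothing to it. The same permutation test gave p = 0.2 for Gabra3 and p = 0.3 for Gabra4 and Gabrb2.

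The base composition of the transcripts moved with the difference between genotypes. Over 14845 genes the log2 fold change had a Pearson correlation of −0.488 with exonic GC content, a description across genes, which share libraries and are not independent replicates. The median log2 fold change was 0.33 in the 961 genes under 40% GC, 0.21 in the 3017 genes from 40 to 45%, 0.05 in the 3922 genes from 45 to 50%, −0.11 in the 3816 genes from 50 to 55% and −0.30 in the 3129 genes above that. All 7 genes lie below 50%. Gabrg1 has 34.2% GC, Gabra2 37.0%, Gabrb1 41.0%, Gabrb2 41.4%, Gabra3 43.1%, Gabra4 43.5% and Gabra5 48.8%. In the class under 40%, which holds Gabra2 and Gabrg1, 28.6% of genes had no overlap and higher values in Angptl2-/- brains. The share was 24.2% from 40 to 45%, where Gabrb1 lies, and 11.4% from 45 to 50%, where Gabra5 lies. Read against all genes of the same class, 6 of the 7 log2 fold changes were above the 75th percentile, and that of Gabrb2 was below the median. For Gabra2 the margin was narrow, at 0.450 beside 0.439. GC content also varies within each class, which this count does not take into account.

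**Figure D2:**
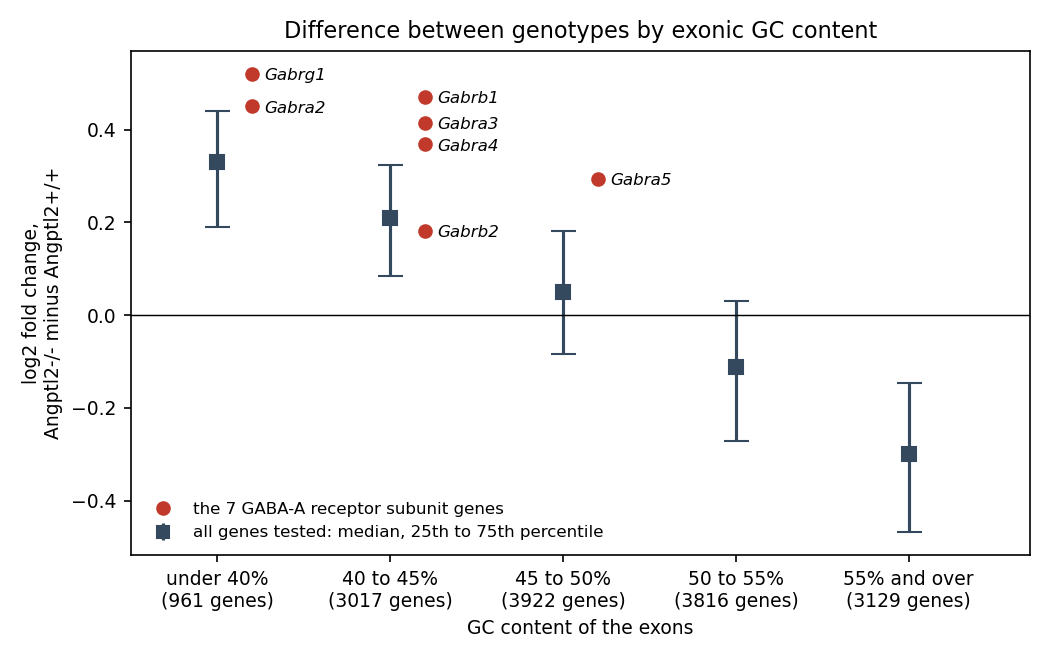
Log2 fold change, Angptl2-/- minus Angptl2+/+ (y axis), by class of exonic GC content (x axis): squares give the median and bars the 25th to 75th percentile of all genes tested, and red circles the 7 GABA-A receptor subunit genes. The median of all genes falls with each class, between 0.33 under 40% and −0.30 in the highest class, and 6 of the 7 genes lie above the bar of their class.

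When log2 FPKM was corrected in each library by a loess curve on GC content, the median of the 7 genes was 0.17 on the log2 scale and 1 of 7 had an unadjusted p under 0.05, beside 2.78% of all genes. That gene was Gabra5, with a log2 fold change of 0.27 after the correction (limma unadjusted p = 0.0177, adjusted p = 0.723). The corrected log2 fold change was 0.20 for Gabrb1, 0.20 for Gabra3, 0.17 for Gabra4, 0.10 for Gabrg1 and 0.06 for Gabra2, with limma adjusted p-values between 0.787 and 0.972. For Gabrb2 it was −0.08. The size of the difference in Gabra2 and Gabrg1, the 2 genes poorest in GC, thus depended most on this correction. A loess curve on exon length left a median of 0.33, and 2 of 7 genes, Gabra5 and Gabrb1, at an unadjusted p under 0.05 by limma. The share of all genes at that level under this curve is not given here, so this count has no background beside it. What made GC content move with genotype was not tested.

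**Figure D3:**
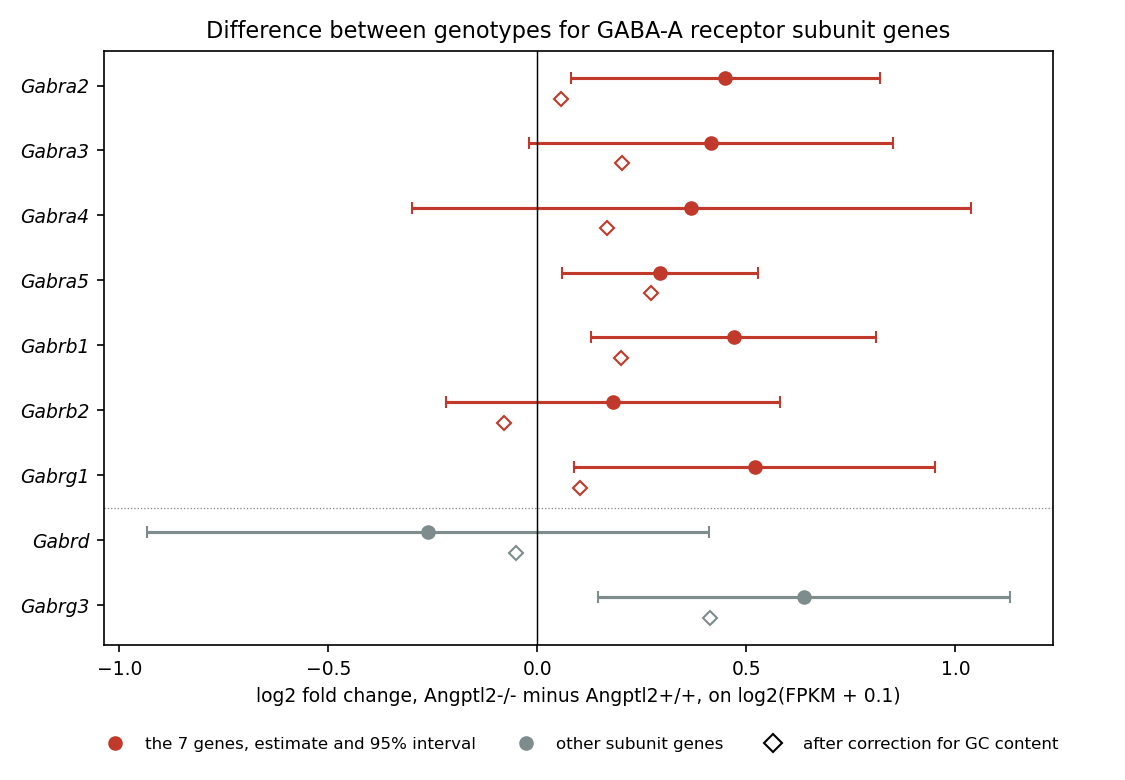
Log2 fold change, Angptl2-/- minus Angptl2+/+ (x axis), for the 7 genes (red, above the dotted line) and 2 other subunit genes (grey): filled circles with 95% intervals are the values without a correction and open diamonds the values after the correction for GC content. Gabra6, Gabre and Gabrq, with far wider intervals, are not drawn. The diamond lies to the left of the circle for each of the 7 genes, least so for Gabra5, and to the left of 0 for Gabrb2.

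The 7 genes did not vary over the libraries as one unit. With each genotype's mean removed, log2 values of Gabra4 and Gabrb2 had a Pearson correlation of 0.98 over the 6 libraries, and those of Gabra3 and Gabrb1 one of 0.95. Gabra3 and Gabra4 gave 0.87, and Gabra5 and Gabrg1 gave 0.77. Gabra2 went the other way, with correlations between −0.64 with Gabra4 and −0.11 with Gabrg1. These are descriptions over libraries that the genes share. In replicate 3 of the Angptl2+/+ brains, Gabra4 was 0.77 and Gabrb2 0.91 SD above their own means, while Gabra2 stood at −1.42 SD and Gabrg1 at −1.36 SD. Head-to-head neighbours on chromosome 5, Gabra4 and Gabrb1, had a correlation of 0.69.

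**Figure D4:**
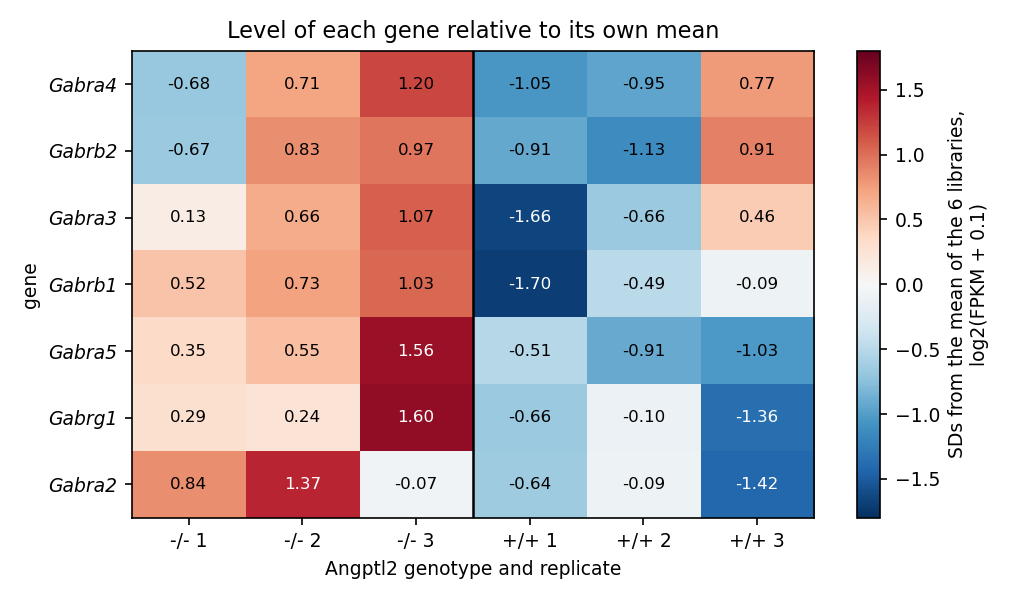
Log2(FPKM + 0.1) of each gene (rows) in the 3 Angptl2-/- libraries (left) and the 3 Angptl2+/+ libraries (right), as SDs from the gene's mean over all 6. Gabra4 and Gabrb2 share a pattern in which Angptl2-/- replicate 1 is low and Angptl2+/+ replicate 3 is high, and Gabra2 is lowest in Angptl2+/+ replicate 3 at −1.42.

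Of 7232 other protein-coding genes averaging at least 5 FPKM, the 5 most like the mean pattern of the 7 genes over the 6 libraries were Alg10b, a glycosyltransferase, with a Pearson correlation of 0.999, Plppr4, a neuronal phospholipid phosphatase-related protein, with 0.999, Usp9x, a deubiquitinase, with 0.996, Mapk8, the kinase JNK1, with 0.995, and Adamts3, a procollagen protease, with 0.994. The measure is over 6 libraries that share the genotype difference, and 621 genes, or 8.59%, reached 0.9. Alg10b, the closest, had 12.5, 14.8 and 16.0 FPKM in Angptl2-/- brains, against 9.70, 10.8 and 11.6 FPKM in Angptl2+/+ brains.

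In summed level the 7 genes reached 169, 198 and 209 FPKM in Angptl2-/- brains, against 134, 145 and 174 FPKM in Angptl2+/+ brains. Angptl2+/+ replicate 3 lay above Angptl2-/- replicate 1. As a share of that sum, all 7 genes overlapped between the genotypes. Gabra3 made up 24.6 ± 0.544% of the sum in Angptl2-/- and 23.5 ± 2.69% in Angptl2+/+ brains (SD, n = 3 each). Gabrb2, the gene with the smallest log2 fold change, made up 18.7, 20.5 and 19.9% in Angptl2-/- brains, against 22.6, 20.2 and 23.6% in Angptl2+/+ brains. The overlap came from Angptl2+/+ replicate 2. Gabrg1 made up between 2.79 and 3.75% in Angptl2-/- and between 2.08 and 3.47% in Angptl2+/+ brains.

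**Figure D5:**
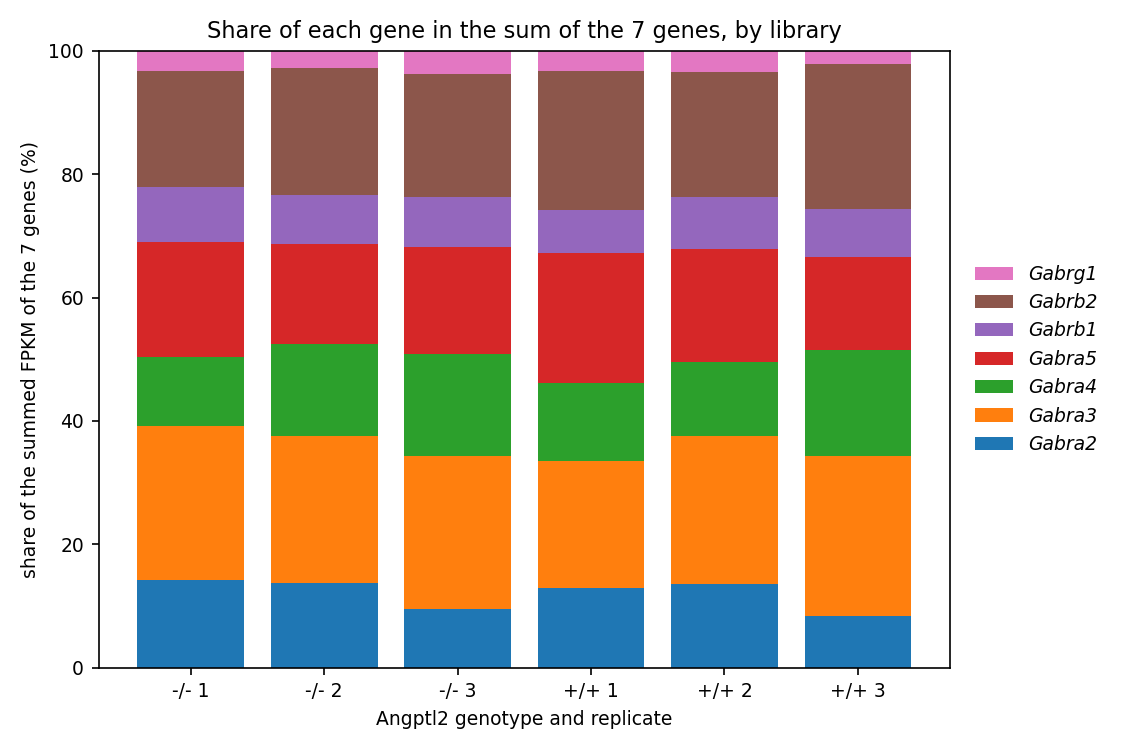
Share of each gene in the summed FPKM of the 7 genes (y axis, %) in the 3 Angptl2-/- libraries (left bars) and the 3 Angptl2+/+ libraries (right bars). Gabrb2 takes 18.7 to 20.5% in Angptl2-/- and 20.2 to 23.6% in Angptl2+/+ libraries, and the ranges of all 7 genes overlap.

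Of 9 other GABA-A and GABA-rho subunit genes examined, 5 were tested and 0 passed the adjusted threshold by limma. At an unadjusted p under 0.05, 1 of the 5 was higher in Angptl2-/- brains, beside 7.09% of all genes. The median log2 fold change of the 5 was 0.37, and 3 were above 0. Gabrg3, encoding the gamma3 subunit, had 6.89, 8.06 and 8.25 FPKM in Angptl2-/- brains, against 3.50, 5.92 and 5.73 FPKM in Angptl2+/+ brains. The groups did not overlap, as in 10.7% of all genes in that direction, and its log2 fold change of 0.64 had an adjusted p of 0.274 by limma. It was 0.40 without Angptl2+/+ replicate 1, the lowest library, and 0.41 after the correction for GC content. Gabrd, encoding the delta subunit, had a log2 fold change of −0.26, which turned to 0.03 without Angptl2+/+ replicate 3. Those of Gabrq (theta subunit) and Gabre (epsilon subunit) were 0.64 and 0.37, and turned to −0.12 and −0.51 without that library, while Gabrp, Gabrr1, Gabrr2 and Gabrr3 were below the minimum. Gabra6, a marker of cerebellar granule cells, was at 0.105, 0.167 and 0.147 FPKM in Angptl2-/- brains, against 10.5, 0 and 0.0710 FPKM in Angptl2+/+ brains, with replicate 1 of Angptl2+/+ standing apart.

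No other list of the inhibitory synapse had a gene past the adjusted threshold of limma. Of 8 tested genes of GABA synthesis, transport and breakdown, 3 had a log2 fold change above 0, with a median of −0.01. Gad2, which makes GABA for synaptic release, had 68.8, 55.7 and 87.0 FPKM in Angptl2-/- brains, against 42.1, 56.8 and 39.4 FPKM in Angptl2+/+ brains, with a log2 fold change of 0.61 (limma adjusted p = 0.274). One Angptl2-/- library overlapped the Angptl2+/+ range. Gad1, the other GABA-synthesizing enzyme, was at 0.20 and the astrocytic GABA transporter Slc6a11 at −0.47 on the log2 scale. After the correction for GC content Gad2 was at 0.43, Gad1 at 0.13 and Slc6a11 at −0.32. With one library left out, Gad1 ranged between 0.073 (without Angptl2-/- replicate 3) and 0.38 (without Angptl2-/- replicate 2). Slc6a11 ranged between −0.77 (without Angptl2+/+ replicate 3) and −0.22 (without Angptl2+/+ replicate 1 or Angptl2-/- replicate 2).

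Among 20 tested genes of receptor assembly, trafficking and scaffold, 11 were above 0, with a median of 0.03. At an unadjusted p under 0.05 by limma, 3 of the 20 were lower in Angptl2-/- brains, beside 9.12% of all genes. Those 3 were Insyn1, a component of inhibitory postsynapses, with a log2 fold change of −0.41, Iqsec3, an exchange factor bound to gephyrin, with −0.47, and Nlgn2, the adhesion protein of inhibitory synapses, with −0.38. After the correction for GC content they were −0.01, −0.34 and −0.02. Gabarapl1, the most abundant gene of the list, was at −0.09, and at 0.03 after that correction. The 6 genes of the GABA-B receptor, a receptor coupled to G proteins, had a median of 0.01, with Gabbr1 at −0.12, Gabbr2 at −0.22 and the auxiliary subunit gene Kctd8 at −0.32. After the correction they were at −0.017, −0.017 and −0.42.

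Slc12a5, the chloride exporter, had 77.7, 82.5 and 80.1 FPKM in Angptl2-/- brains, against 94.0, 96.8 and 116 FPKM in Angptl2+/+ brains. All 3 Angptl2-/- libraries lay below, as in 11.8% of all genes, with a log2 fold change of −0.35 (limma adjusted p = 0.274). The value was −0.05 after the correction for GC content, of which this gene has 58.3%. The 8 tested chloride transport genes had a median of −0.13, with Car7, a neuronal carbonic anhydrase, at −0.65, or −0.54 after the correction, and the chloride channel gene Clcn2 at −0.24, or 0.065 after the correction. Glra2, the glycine receptor alpha2 subunit of immature neurons, had 18.4, 15.9 and 17.1 FPKM in Angptl2-/- brains, against 8.82, 11.9 and 7.11 FPKM in Angptl2+/+ brains. It did not overlap, as in 10.7% of all genes in that direction, and its log2 fold change of 0.91 (limma adjusted p = 0.273) was 0.65 after the correction. Glrb, the beta subunit shared by glycine receptors, was at 0.15, and at −0.10 after the correction, and Glra3, the alpha3 subunit, was at 0.43, and at 0.015 after it. The 4 tested glycine receptor genes had a median of 0.29, or −0.04 after the correction. Before it, 3 were above 0 and the lowest of the 4 was at −0.71. Of the 10 tested subunit genes of excitatory AMPA and NMDA receptors, 5 were above 0, with a median of 0.12. Gria1 was at 0.24 with 48.8% GC, Gria2 at 0.41 with 38.0% GC, and Grin2c and Grin1 were at −0.55 and −0.35 with 62.0 and 56.3% GC. After the correction Gria1 was at 0.22, Gria2 at 0.043, Grin2c at −0.15 and Grin1 at −0.12.

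The RNA came from all cells of the tissue, and a change in RNA per cell cannot be told apart from a change in the share of cells. General neuronal markers had a median log2 fold change of 0.04, and 5 of 10 were above 0, beside a median of 0.42 for the 7 subunit genes. After the correction for GC content these medians were −0.08 and 0.17. Markers of striatal projection neurons were above 0 in 10 of 10, with a median of 1.43 before and after the correction for GC content. Of these 10, 7 were higher at an unadjusted p under 0.05 by limma, beside 7.09% of all genes. Without overlap, 5 were higher, beside 10.7% of all genes. Their summed level was 153 to 287 FPKM in Angptl2-/- and 68.0 to 160 FPKM in Angptl2+/+ brains, with Six3 at 0 in at least 1 Angptl2+/+ library. Penk, the most abundant of them, had 47.0, 56.9 and 72.2 FPKM in Angptl2-/- brains, against 20.2, 46.4 and 16.3 FPKM in Angptl2+/+ brains. Markers of the choroid plexus were above 0 in 8 of 8 and summed to 105 to 941 FPKM in Angptl2-/- and 1.71 to 8.22 FPKM in Angptl2+/+ brains, with Kcne2 at 0 in at least 1 Angptl2+/+ library. Ttr, the transthyretin gene and the most abundant of them, had 141, 916 and 99.6 FPKM in Angptl2-/- brains, against 2.34, 4.29 and 0.580 FPKM in Angptl2+/+ brains. By the mean of log2 values, taken relative to the Angptl2+/+ mean, both lists stood higher in all 3 Angptl2-/- libraries. The striatal margin was narrow, with 1.041 in Angptl2-/- replicate 1 and 1.035 in Angptl2+/+ replicate 2, and the striatal sums overlapped. Red blood cell markers were below 0 in 5 of 5 tested, with 125 to 274 FPKM in Angptl2-/- and 302 to 498 FPKM in Angptl2+/+ brains, and none was at 0. Astrocyte markers were below 0 in 7 of 10 and summed to 565 to 601 FPKM in Angptl2-/- and 585 to 723 FPKM in Angptl2+/+ brains, and none was at 0. By the mean of log2 values, red blood cell and astrocyte markers stood lower in all 3 Angptl2-/- libraries. Markers of oligodendrocytes and myelin were below 0 in 10 of 10, with a median of −0.62 (−0.60 after the correction for GC content), and none was at 0 FPKM. Of these 10, 3 were lower at an unadjusted p under 0.05 by limma, beside 9.12% of all genes. Their summed levels of 615, 829 and 1139 FPKM in Angptl2-/- brains overlapped those of 1951, 969 and 953 FPKM in Angptl2+/+ brains. Thalamic markers were below 0 in 7 of 8 tested (median −0.33) and summed to 29.5 to 78.8 FPKM in Angptl2-/- and 41.6 to 97.5 FPKM in Angptl2+/+ brains, with Gbx2 at 0 in at least 1 Angptl2+/+ library. Hippocampal markers were below 0 in 5 of 7 tested (median −0.47) and summed to 43.3 to 51.9 FPKM in Angptl2-/- and 35.0 to 77.4 FPKM in Angptl2+/+ brains, and none was at 0. Cerebellar markers were below 0 in 10 of 10 tested and summed to 54.1 to 55.5 FPKM in Angptl2-/- and 64.6 to 182 FPKM in Angptl2+/+ brains, where replicate 1 was the highest. By the mean of log2 values of these markers the genotypes overlapped. Barhl1 was at 0 in at least 1 library of both genotypes, and Gabra6 and Pcp2 were at 0 in at least 1 Angptl2+/+ library. Without Angptl2+/+ replicate 1, the highest in the myelin, thalamic, hippocampal and cerebellar sums, the median of the 7 subunit genes was 0.32 and 3 of 7 had an unadjusted p under 0.05 by limma. Of all genes, 605 were then higher at that level, against 1054 with all libraries. The part of any of these cell types in the levels of the 7 genes was not tested.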

How the data were processed

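Total RNA of mouse brain at postnatal day 15 (6 libraries) was extracted with TRIzol and an RNeasy kit and sequenced as 150 bp paired-end reads on an Illumina HiSeq instrument. Per the labels and the table, the authors deposited expression as FPKM. The submitters' processing notes list mm8 and Bowtie 0.12.2, while how fragments were counted and filtered is not given in the sources used. Of 54532 identifiers, 54495 matched GENCODE M21 (GRCm38), which gave symbols, coordinates, exon lengths and exonic GC content. FPKM multiplied by exon length gave whole fragments, within 0.05, for 96.6 to 96.8% of values above 0. These fragments served for depth, counting error and voom.

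Log2(FPKM + 0.1) of genes averaging at least 0.5 FPKM was tested with limma 3.58.1 in R 4.3.3 (empirical Bayes with an intensity trend), all 6 libraries, no covariate, threshold 0.05 after Benjamini-Hochberg adjustment. The code was tested on simulated data. Lists were described by counts and medians without a set test. The genes and lists were chosen with earlier results of these data known. Genes named are the 7 members, Angptl2, other subunit genes, of each pathway list the most abundant and the 3 with the smallest p, of each marker list used the most abundant, and the 5 most correlated with the members. Ddx3y, Six3, Kcne2, Gm9962, Barhl1, Pcp2, Gbx2, Gapdh and Mir7663 were named after their values were seen. Alternatives covered pseudocounts of 1 and 0.01, filters, median-ratio and quantile scaling, leaving mitochondrial and haemoglobin genes out of the scaling, moderation settings, a replicate block, voom, each library left out, and loess curves (span 0.3) on GC content and exon length. Some genes of these lists are not reported here and do not enter their counts. Promoter windows are from RefSeq (GRCm38.p6) and matched all 7 genes. Python 3.11.15, pandas 2.3.3 and matplotlib 3.10.9 made tables and figures.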

Additional observations from a re-analysis of the deposited data

How the results depend on the processing

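Under the 19 alternatives, 0 of the 7 subunit genes passed the adjusted threshold of limma, and their adjusted p-values ranged from 0.198 to 0.972. Their median log2 fold change was 0.17 under the loess on GC content and 0.32 to 0.50 when one library was left out. The count at an unadjusted p under 0.05 was 1 under the loess on GC content and 2 to 4 with one library left out. It was 2 under the loess on exon length, for which the share of all genes is not given. Of all genes, 1 passed under the replicate block (Ttr), 1 under the loess on exon length (Mir7663), and 0 to 1 with one library left out (Gapdh, without Angptl2+/+ replicate 1). Equal replicate numbers did not mark shared deviations (correlations 0.037, −0.069 and 0.162). With the replicate block 5 of the 7 genes, and 1164 of all genes, were higher at an unadjusted p under 0.05. Genes higher and lower at that level numbered 1054 and 1355, against 413 and 602 under the loess on GC content, 1728 and 857 when rescaled without mitochondrial and haemoglobin genes, and 466 to 1368 and 800 to 1662 with one library left out. The loess on GC content reversed Gabrb2 (−0.079), Gabarapl1 (0.033), Clcn2 (0.065) and Glrb (−0.10), and quantile normalization reversed Gabarapl1 (0.0091). With one library left out, log2 fold changes ranged from −0.47 to 0.032 for Gabrd, −0.51 to 1.04 for Gabre and −0.12 to 1.34 for Gabrq. The cause was not tested. The spread between replicates, which includes counting error, exceeded that error for all 7 genes. The margin was narrowest for Gabra5 in Angptl2+/+ brains, at 3.46% beside 2.74%.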
